A study of Mus musculus with 4 samples.

Results

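The genes described here are the chemokine ligands and chemokine receptors on the arrays, 49 of 18193 genes with a probe set of their own. They were taken by gene symbol (*Ccl*, *Cxcl*, *Ccr* and *Cxcr* with a number, plus *Cx3cl1*, *Cx3cr1*, *Xcl1* and *Ackr3*), and comprise 33 ligands and 16 receptors. The brightest probe set of a gene stood for it. Chondrocytes were released by collagenase from the ribs of C57BL6/J mice at postnatal day 5, and RNA from 3 extractions was pooled and hybridized to 1 array per genotype. The double mutant carried both the homozygous p.V194D substitution in *Matn3*, which models the skeletal dysplasia EDM5, and the XBP1 deletion. The *Matn3* mutant carried p.V194D with intact *Xbp1*. The XBP1 null mice (*Xbp1* Col2CreΔex2) lacked exon 2 of *Xbp1* through a Cre recombinase driven by the *Col2a1* promoter, which is active in cells of the chondrocyte lineage. The wild type mice carried neither allele. Litters were pooled before isolation, which leaves no measure of the spread between animals.

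Chemokines are small secreted proteins that bind G protein-coupled receptors and direct the movement of leukocytes, and they are held on heparan sulphate at cell surfaces and in the matrix. Inflammatory members are transcribed within a short time of stimulation by tumour necrosis factor, interleukin-1 or interferon, mostly through NF-κB, STAT and IRF factors. Homeostatic members are made without such stimuli and place lymphocytes, stem cells and endothelium in their tissues. Cultured or enzymatically released chondrocytes are known to make several neutrophil and monocyte attractants, and growth plate cartilage itself has no vessels.

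Values are linear array signals, and levels were not compared between genes. Where the signals of a marker list are summed, bright probe sets weigh most. The 25th percentile of all signals, 5.52, served as a floor, and the median of all signals was 43.8. Of the 49 genes, 30 were at or above the floor on all 4 arrays and 9 were under it on 1, 2 or 3 arrays. The other 10 were under it on every array (*Ccl1*, *Ccl3*, *Ccl6*, *Ccl12*, *Ccl24*, *Ccr3*, *Ccr7*, *Ccr8*, *Cxcr2* and *Cxcr6*), with signals of at most 4.06, and no difference is given for them. A fold with 1 of its arrays under the floor was computed against the floor and is written "at least". With 1 array per genotype there is no error and no test, so "higher" and "lower" state the order of 2 arrays, and a fold over 1.5 was counted as a difference. The comparisons of the double mutant, the *Matn3* mutant and the XBP1 null with wild type all use the same wild type array.

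The probe sets of *Xbp1* could not serve as a check of the labels. The brightest had a signal of 9548 in the double mutant, 11403 in the *Matn3* mutant, 7877 in the XBP1 null and 8183 in wild type, but the position of the probe sets relative to exon 2 was not analysed here. All 15 chondrocyte markers were above the floor on every array, with a summed signal of 152656 to 177559. Markers of other cells differed between the preparations. All 11 endothelial markers were over 1.5-fold higher in the XBP1 null than in wild type, beside 18.5% of all genes, and their summed signal was 1498 in the double mutant, 895 in the *Matn3* mutant, 7041 in the XBP1 null and 296 in wild type. The summed signal of 10 leukocyte markers was 254, 253 and 397 in the double mutant, the *Matn3* mutant and the XBP1 null, against 207 in wild type. On each array 4 of the 10 were under the floor. In the double mutant 2 were higher and 2 lower than in wild type, beside 19.6% and 8.56% of all genes. The *Matn3* mutant had 3 higher and 1 lower, beside 16.9% and 15.7%. The XBP1 null also had 3 higher and 1 lower, beside 18.5% and 8.35%. Of 10 markers of T, NK and B cells, 4 were under the floor on every array, namely the T cell receptor subunit genes *Cd3e*, *Cd3g* and *Cd3d* and the granule gene *Nkg7*. In the double mutant 2 of the 10 were higher and 1 lower than in wild type, beside 19.6% and 8.56% of all genes. The *Matn3* mutant also had 2 higher and 1 lower, beside 16.9% and 15.7%. The XBP1 null had 4 higher and 1 lower, beside 18.5% and 8.35%. *Cd2*, an adhesion gene of T and NK cells, was above the floor on every array, with 16.3, 18.9 and 12.2 in the double mutant, the *Matn3* mutant and the XBP1 null, against 6.74 in wild type. *Thy1*, which fibroblasts also express, had 113, 41.3 and 368 in these mutants, against 169 in wild type. *Cd79a* was at least 2.15-fold lower in the double mutant and 1.85-fold lower in the XBP1 null than in wild type. In such preparations, fewer cells of a type and less RNA per cell cannot be told apart.

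The 3 ligands of CXCR3, the receptor that draws activated T cells and natural killer cells, were all lower in each mutant than in wild type. *Cxcl10* had a signal of 5048 in the double mutant, 4273 in the *Matn3* mutant, 2644 in the XBP1 null and 12053 in wild type. It was 2.39-fold lower in the double mutant, 2.82-fold lower in the *Matn3* mutant and 4.56-fold lower in the XBP1 null than in wild type. *Cxcl11* had signals of 41.0, 33.1 and 11.4 in the double mutant, the *Matn3* mutant and the XBP1 null, against 224 in wild type. These mutant signals are 5.45-fold, 6.75-fold and 19.6-fold lower than the wild type one. The second probe set of *Cxcl11* gave the same order of the XBP1 null and wild type, with 22.1 in the double mutant, 22.3 in the *Matn3* mutant, 6.73 in the XBP1 null and 41.6 in wild type. *Cxcl9*, which is induced chiefly by interferon-γ, had 23.1 in the double mutant, 31.0 in the *Matn3* mutant, 28.3 in the XBP1 null and 83.1 in wild type, and was 3.59-fold, 2.68-fold and 2.94-fold lower in these mutants than in wild type. Its second probe set did not follow, with 10.5 in the double mutant and values under the floor on the other arrays. The wild type array was thus the highest of the 4 for all 3 ligands, and the 3 folds of each gene share it.

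Among the 3 mutants, the XBP1 null was the lowest for *Cxcl10* and *Cxcl11*. The double mutant was 1.91-fold higher than the XBP1 null for *Cxcl10* and 3.60-fold higher for *Cxcl11*, while it was within 1.5-fold of the *Matn3* mutant for both. *Cxcl9* was within 1.5-fold in both of these comparisons. The 3 genes are neighbours on mouse chromosome 5. Promoter windows of *Cxcl10* and *Cxcl9* are shown as examples, chosen after the values were seen. Any link between their letters and the signals was not tested. Each window is the 250 bases before the annotated transcription start, from RefSeq on GRCm38.p6, 5′ to 3′ on the strand of the gene, with *Cxcl10* at chr5:92348890-92349139 and *Cxcl9* at chr5:92328080-92328329, both on the minus strand. Capitals mark matches on either strand to the κB motif, to the core of the interferon-stimulated response element (GAAANNGAA) or to the TATA box (TATAAA).
Cxcl10: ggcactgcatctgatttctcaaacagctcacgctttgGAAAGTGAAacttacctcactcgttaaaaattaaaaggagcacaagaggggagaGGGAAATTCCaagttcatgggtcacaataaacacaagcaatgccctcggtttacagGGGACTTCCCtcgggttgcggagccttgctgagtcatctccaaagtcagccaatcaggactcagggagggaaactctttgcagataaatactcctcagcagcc
Cxcl9: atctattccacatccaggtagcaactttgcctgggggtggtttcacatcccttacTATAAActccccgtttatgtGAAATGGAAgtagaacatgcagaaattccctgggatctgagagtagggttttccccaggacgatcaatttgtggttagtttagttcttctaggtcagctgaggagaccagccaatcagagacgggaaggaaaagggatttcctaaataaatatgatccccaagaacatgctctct
The *Cxcl10* window holds the interferon-stimulated core starting 213 bases before the start and κB motifs starting 159 and 103 bases before it. The *Cxcl9* window holds the core at 175 bases and the letters TATAAA at 195 bases, but no κB motif. Of 32851 promoter windows of this length, 7.13% hold the interferon-stimulated core, 3.90% the κB motif and 12.4% the TATA box. A match is a description of these letters and not evidence of binding. The table had no entry for *Cxcl11*.

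The CXC ligands with an ELR motif, which attract neutrophils through CXCR2, did not move as a group. *Cxcl1* had a signal of 12219.5 in the double mutant, 13005 in the *Matn3* mutant, 12079.7 in the XBP1 null and 10055 in wild type, and no comparison of this probe set passed 1.5-fold. Of its other 2 probe sets, one had the XBP1 null lowest at 3131, against 4046 in wild type, and was 1.61-fold higher in the double mutant than in the XBP1 null, and the other ranged from 10009 in the XBP1 null to 13671 in the *Matn3* mutant. *Cxcl2* had 4560.3 in the double mutant, 6282 in the *Matn3* mutant, 3541 in the XBP1 null and 4046 in wild type, so that the *Matn3* mutant was the highest array and was 1.55-fold higher than wild type. *Cxcl3* had a pair of low and a pair of high arrays, with 160.2 in the double mutant and 179.9 in the XBP1 null, against 746 in the *Matn3* mutant and 498 in wild type. With XBP1 deleted it was 4.66-fold lower on the *Matn3* mutant background and 2.77-fold lower on the wild type background.

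*Cxcl5*, which encodes the neutrophil attractant LIX, had the widest spread of these genes. Its signal was 2.09 in the double mutant, under the floor, 39.7 in the *Matn3* mutant, 15.6 in the XBP1 null and 8.86 in wild type. The *Matn3* mutant was 4.49-fold and the XBP1 null 1.76-fold higher than wild type. The double mutant was at least 7.20-fold lower than the *Matn3* mutant, at least 2.83-fold lower than the XBP1 null and at least 1.61-fold lower than wild type. Each single mutant was thus above wild type and the double mutant below it. *Cxcl15*, known as a lung chemokine, stayed near the floor with 2.65, 8.02 and 8.66 in the double mutant, the *Matn3* mutant and the XBP1 null, against 4.82 in wild type.

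These 5 genes also lie together on chromosome 5. The windows of *Cxcl1*, *Cxcl2* and *Cxcl3* are shown because they share a κB motif close to the start while the 3 genes had different orders of the arrays. They lie on the plus strand at chr5:90890995-90891244 for *Cxcl1*, chr5:90903649-90903898 for *Cxcl2* and chr5:90785851-90786100 for *Cxcl3*, and the same motifs are in capitals.
Cxcl1: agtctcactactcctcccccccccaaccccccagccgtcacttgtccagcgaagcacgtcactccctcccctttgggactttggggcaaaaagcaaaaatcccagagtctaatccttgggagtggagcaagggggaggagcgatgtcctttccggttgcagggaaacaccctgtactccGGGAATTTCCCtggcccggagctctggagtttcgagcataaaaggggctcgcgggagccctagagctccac
Cxcl2: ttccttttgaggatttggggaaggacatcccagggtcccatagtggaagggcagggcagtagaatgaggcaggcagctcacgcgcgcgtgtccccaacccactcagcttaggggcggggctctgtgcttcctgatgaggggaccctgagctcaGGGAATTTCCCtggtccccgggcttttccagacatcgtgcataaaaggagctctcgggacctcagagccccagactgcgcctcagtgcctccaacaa
Cxcl3: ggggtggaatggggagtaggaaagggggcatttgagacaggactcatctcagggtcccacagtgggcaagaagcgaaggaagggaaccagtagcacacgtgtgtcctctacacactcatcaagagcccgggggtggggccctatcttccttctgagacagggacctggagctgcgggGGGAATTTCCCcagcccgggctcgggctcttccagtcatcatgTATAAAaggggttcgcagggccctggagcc
In each, GGGAATTTCCC holds the κB motif once on each strand, in 2 matches that overlap by all but 1 base. The matches start 71 and 70 bases before the start of *Cxcl1*, 97 and 96 bases before that of *Cxcl2*, and 73 and 72 bases before that of *Cxcl3*. *Cxcl3* alone of these 3 holds the TATA box as spelled here, 30 bases before the start. Windows were found for 36 of the 49 genes. Of these, 8 hold a κB motif, 6 the interferon-stimulated core and 11 a TATA box, beside 4.46%, 8.18% and 14.3% of 27025 genes with a window. The table had no entry for *Cxcl5*, *Ccl2* or *Ccl5*.

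**Figure D1:**
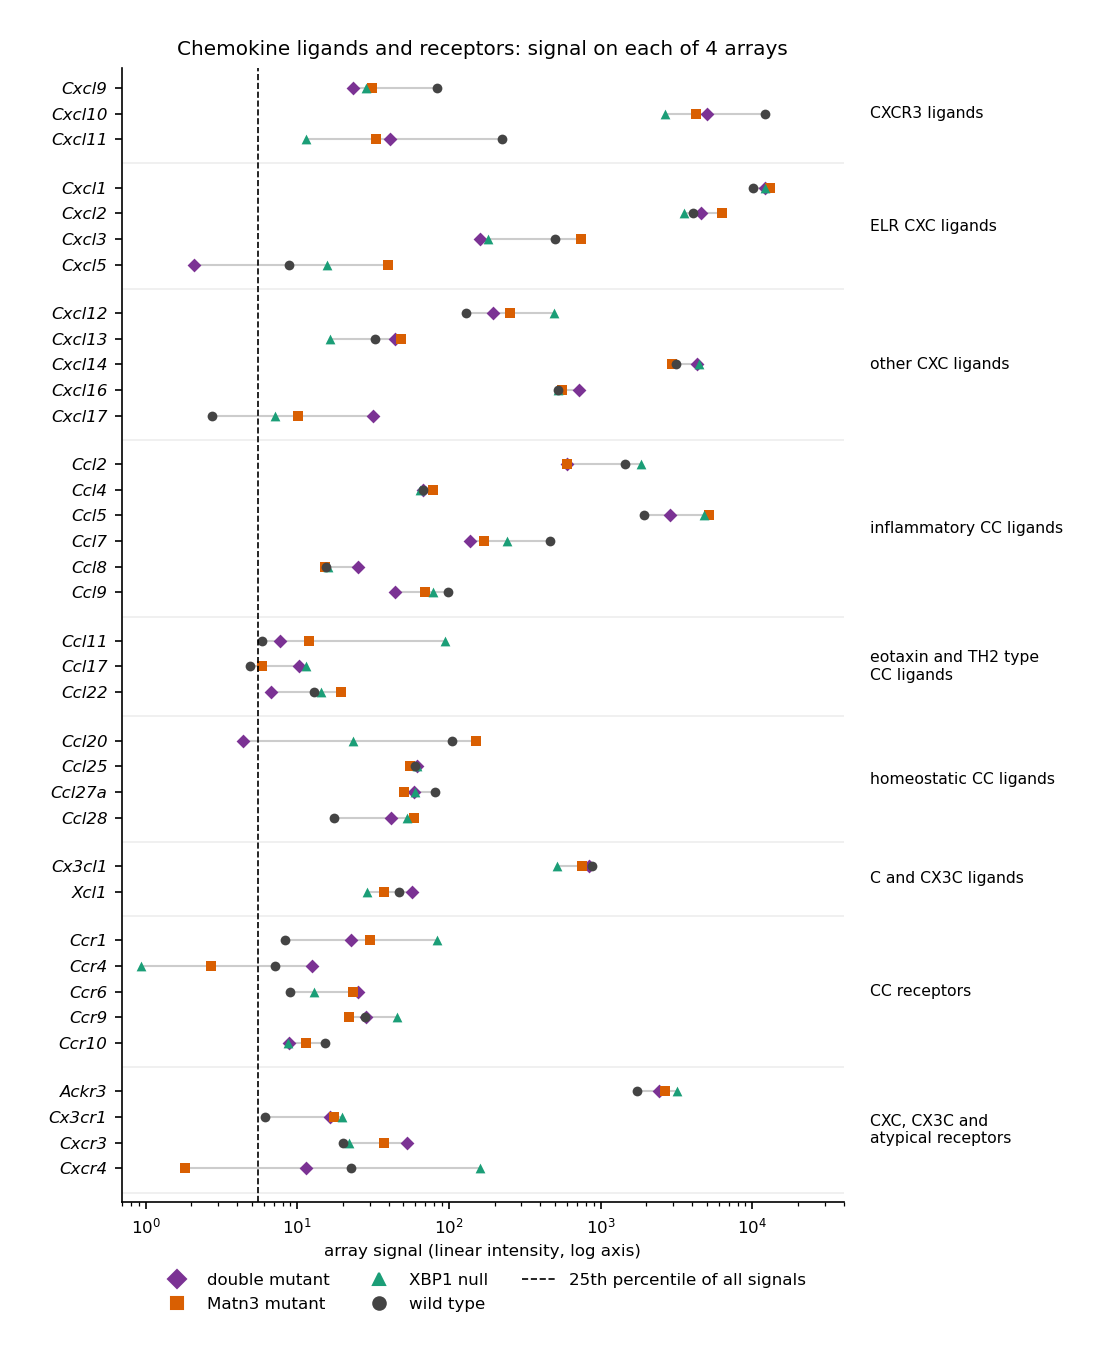
Signals of 36 chemokine ligand and receptor genes on the 4 arrays (linear intensity on a log axis), 1 point per array, grouped by type, with the floor of 5.52 as a dashed line. Rows are to be read along, not against each other, since probe sets differ in brightness. The wild type point is the highest for *Cxcl9*, *Cxcl10* and *Cxcl11*, and the XBP1 null point lies far to the right for *Ccl11*, *Ccr1* and *Cxcr4*.

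Among the other CXC ligands, *Cxcl12* and *Cxcl17* differed most between arrays. *Cxcl12*, the homeostatic ligand of CXCR4 that guides endothelial and blood-forming cells, had a signal of 194 in the double mutant, 254 in the *Matn3* mutant, 491 in the XBP1 null and 130.3 in wild type. It was 3.77-fold higher in the XBP1 null and 1.95-fold higher in the *Matn3* mutant than in wild type, and 2.54-fold lower in the double mutant than in the XBP1 null. A second probe set of *Cxcl12* had the same highest and lowest arrays, with 47.5 in the double mutant, 36.4 in the *Matn3* mutant, 133 in the XBP1 null and 8.65 in wild type. The third did not, with 28.5, 30.2 and 22.6 in the double mutant, the *Matn3* mutant and the XBP1 null, against 23.7 in wild type.

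*Cxcl17*, a mucosal chemokine, had 31.6 in the double mutant, 10.2 in the *Matn3* mutant, 7.13 in the XBP1 null and 2.73 in wild type. The double mutant was at least 5.73-fold higher than wild type, 3.11-fold higher than the *Matn3* mutant and 4.44-fold higher than the XBP1 null. *Cxcl13*, the B cell attractant bound by CXCR5, had 44.02 in the double mutant, 48.3 in the *Matn3* mutant, 16.5 in the XBP1 null and 32.5 in wild type. It was 1.97-fold lower in the XBP1 null than in wild type and 2.67-fold higher in the double mutant than in the XBP1 null. The second probe set of *Cxcl13* also had the XBP1 null lowest, with 8.15 in the double mutant, 23.97 in the *Matn3* mutant, 4.84 in the XBP1 null and 18.5 in wild type. It differed in the double mutant, which was 2.94-fold lower than the *Matn3* mutant, 2.27-fold lower than wild type and at least 1.48-fold higher than the XBP1 null. Its receptor gene *Cxcr5* stayed near the floor, with 6.09, 10.7 and 5.42 in the double mutant, the *Matn3* mutant and the XBP1 null, against 6.78 in wild type. It was 1.57-fold higher in the *Matn3* mutant than in wild type and 1.75-fold lower in the double mutant than in the *Matn3* mutant. *Cxcl14* had 4329.9 in the double mutant, 2962 in the *Matn3* mutant, 4472 in the XBP1 null and 3146 in wild type. *Cxcl16*, a membrane-bound ligand of CXCR6, had 715, 554 and 525 in the double mutant, the *Matn3* mutant and the XBP1 null, against 521 in wild type. No comparison of *Cxcl14* or *Cxcl16* passed 1.5-fold.

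The inflammatory CC ligands, which draw monocytes and T cells through receptors that include CCR1 and CCR2, split between *Ccl5* on one side and *Ccl2* and *Ccl7* on the other. *Ccl5* (RANTES) had a signal of 2850.5 in the double mutant, 5201 in the *Matn3* mutant, 4805 in the XBP1 null and 1935 in wild type. Both single mutants were the high arrays, 2.69-fold higher in the *Matn3* mutant and 2.48-fold higher in the XBP1 null than in wild type. The double mutant was 1.82-fold lower than the *Matn3* mutant and 1.69-fold lower than the XBP1 null, and lay within 1.5-fold of wild type. For *Ccl5* the wild type array was the lowest, whereas for *Cxcl10*, which like *Ccl5* is a known target of NF-κB and IRF factors, it was the highest.

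*Ccl2*, the main monocyte attractant, had 599 in the double mutant and 604 in the *Matn3* mutant, against 1858 in the XBP1 null and 1441 in wild type. The p.V194D mutation went with a signal 3.10-fold lower when XBP1 was absent and 2.39-fold lower when it was present. *Ccl7*, a CCR2 ligand that neighbours *Ccl2* on chromosome 11, had 138 in the double mutant, 169 in the *Matn3* mutant, 243 in the XBP1 null and 461 in wild type. It was 1.76-fold lower in the double mutant than in the XBP1 null and 2.73-fold lower in the *Matn3* mutant than in wild type. Unlike *Ccl2*, it was also 1.90-fold lower in the XBP1 null than in wild type, and it was 3.33-fold lower in the double mutant than in wild type. For both genes the 2 arrays with the *Matn3* mutation were the lowest.

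*Ccl9*, a ligand of CCR1 known in mouse, had 43.8 in the double mutant, 69.7 in the *Matn3* mutant, 78.0 in the XBP1 null and 98.3 in wild type, and its second probe set gave the same order with 23.5, 47.5 and 53.0 in the double mutant, the *Matn3* mutant and the XBP1 null, against 79.2 in wild type. The double mutant was 2.24-fold lower than wild type. *Ccl8* had 25.2 in the double mutant, 15.2 in the *Matn3* mutant, 15.9 in the XBP1 null and 15.5 in wild type, so that only the double mutant stood apart. *Ccl4*, a monocyte and T cell attractant, was within 1.5-fold in every comparison, at 67.0, 78.5 and 64.9 in the double mutant, the *Matn3* mutant and the XBP1 null, against 67.4 in wild type. *Ccl3*, *Ccl6* and *Ccl12* were under the floor throughout.

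Of the eotaxin and TH2 type ligands, *Ccl11* showed one of the widest differences of the family. *Ccl11* encodes eotaxin-1, which attracts eosinophils through CCR3 and is made by fibroblasts and endothelium as well as by leukocytes. Its signal was 7.64 in the double mutant, 12.0 in the *Matn3* mutant, 94.3 in the XBP1 null and 5.87 in wild type. The XBP1 null was 16.1-fold higher than wild type, and the double mutant was 12.3-fold lower than the XBP1 null. The other 3 arrays lay between 5.87 and 12.0, close to the floor, so this difference is that of a single array. *Ccl22*, a ligand of CCR4, had 6.66 in the double mutant, 19.5 in the *Matn3* mutant, 14.4 in the XBP1 null and 12.8 in wild type. It was 2.93-fold lower in the double mutant than in the *Matn3* mutant. *Ccl17*, the other CCR4 ligand, had 10.2 in the double mutant, 5.86 in the *Matn3* mutant, 11.5 in the XBP1 null and 4.84 in wild type, so the 2 arrays without XBP1 were the higher ones.

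*Ccl20*, the only chemokine ligand of CCR6 and an attractant of dendritic cells and TH17 cells, was lowest where both genes were altered. Its signal was 4.36 in the double mutant, 151 in the *Matn3* mutant, 23.4 in the XBP1 null and 104 in wild type. The double mutant was at least 27.4-fold lower than the *Matn3* mutant, at least 4.25-fold lower than the XBP1 null and at least 18.9-fold lower than wild type. In the XBP1 null it was 4.46-fold lower than in wild type. With XBP1 present, the *Matn3* mutant was 1.44-fold higher than wild type, which is under the threshold. *Ccl20* and *Cxcl3* were the 2 genes of the family over 1.5-fold lower on deletion of XBP1 on both *Matn3* backgrounds.

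Of the other homeostatic CC ligands, *Ccl28* differed most between arrays. *Ccl28*, a mucosal ligand of CCR10, had a signal of 41.8 in the double mutant, 59.0 in the *Matn3* mutant, 52.9 in the XBP1 null and 17.4 in wild type. All 3 mutants were above wild type, 2.40-fold in the double mutant, 3.39-fold in the *Matn3* mutant and 3.04-fold in the XBP1 null. A second probe set of *Ccl28* also had wild type lowest, with 44.3, 21.1 and 29.4 in the double mutant, the *Matn3* mutant and the XBP1 null, against 16.3 in wild type. *Ccl27a*, the skin ligand of CCR10, had 58.9, 50.6 and 59.5 in the double mutant, the *Matn3* mutant and the XBP1 null, against 81.0 in wild type, and was 1.60-fold lower in the *Matn3* mutant than in wild type. *Ccl25*, the thymic ligand of CCR9, had 61.3 in the double mutant, 55.0 in the *Matn3* mutant, 61.5 in the XBP1 null and 59.8 in wild type, and no comparison of this probe set passed 1.5-fold. A second probe set of *Ccl25* had 37.2 in the double mutant, 30.3 in the *Matn3* mutant, 22.6 in the XBP1 null and 30.7 in wild type, and was 1.65-fold higher in the double mutant than in the XBP1 null.

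*Cx3cl1* (fractalkine), a membrane-bound ligand on endothelium and other cells, had a signal of 835 in the double mutant, 749 in the *Matn3* mutant, 517 in the XBP1 null and 881 in wild type. The XBP1 null array was the low one, 1.70-fold lower than wild type, and the double mutant was 1.61-fold higher than the XBP1 null. The XBP1 null was also the lowest array on the other 3 probe sets of *Cx3cl1*, one of which had 130.1 in the double mutant, 143 in the *Matn3* mutant, 70.8 in the XBP1 null and 289 in wild type. *Xcl1* (lymphotactin) had 57.4 in the double mutant, 37.3 in the *Matn3* mutant, 28.8 in the XBP1 null and 46.7 in wild type. It was 1.62-fold lower in the XBP1 null than in wild type and 1.54-fold higher in the double mutant than in the *Matn3* mutant.

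Of the 16 receptor genes, 7 were at or above the floor on all 4 arrays. *Ccr1*, carried by monocytes, neutrophils and osteoclast precursors, had 22.6 in the double mutant, 30.0 in the *Matn3* mutant, 83.5 in the XBP1 null and 8.34 in wild type. It was 2.72-fold, 3.60-fold and 10.01-fold higher in these mutants than in wild type, and 3.69-fold lower in the double mutant than in the XBP1 null. The second probe set of *Ccr1* was under the floor on every array. *Cx3cr1*, the fractalkine receptor of monocytes and tissue macrophages, had 16.3, 17.5 and 19.6 in the double mutant, the *Matn3* mutant and the XBP1 null, against 6.10 in wild type. It was 2.68-fold, 2.87-fold and 3.22-fold higher in these mutants than in wild type, and its second probe set was also under the floor throughout.

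*Cxcr4*, the receptor of CXCL12 on endothelial tip cells, leukocytes and blood-forming cells, had 11.4 in the double mutant, 1.83 in the *Matn3* mutant, 159.6 in the XBP1 null and 22.6 in wild type. The XBP1 null was 7.07-fold higher than wild type, and the double mutant was 14.0-fold lower than the XBP1 null. The *Matn3* mutant was at least 4.09-fold lower than wild type, and the double mutant was at least 2.07-fold higher than the *Matn3* mutant. *Cxcr4* was thus higher without XBP1 and lower with the *Matn3* mutation on both backgrounds of the other gene. *Ackr3*, an atypical receptor that takes up CXCL12 and CXCL11, had 2414 in the double mutant, 2667 in the *Matn3* mutant, 3179 in the XBP1 null and 1725 in wild type. The XBP1 null was 1.84-fold and the *Matn3* mutant 1.55-fold higher than wild type.

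*Cxcr3*, whose 3 ligands were lower in every mutant, had 53.2 in the double mutant, 37.2 in the *Matn3* mutant, 22.1 in the XBP1 null and 20.1 in wild type. It was 2.64-fold higher in the double mutant and 1.85-fold higher in the *Matn3* mutant than in wild type, and 2.41-fold higher in the double mutant than in the XBP1 null. *Ccr6*, the receptor of CCL20, had 25.1 in the double mutant, 23.3 in the *Matn3* mutant, 13.0 in the XBP1 null and 8.94 in wild type. It was 2.81-fold and 2.61-fold higher in the double mutant and the *Matn3* mutant than in wild type. For both receptors the 2 arrays with the *Matn3* mutation were the highest. The ligand and receptor genes did not share an order in either pair.

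*Ccr10* had 8.78 in the double mutant, 11.5 in the *Matn3* mutant, 8.63 in the XBP1 null and 15.3 in wild type, while its ligand gene *Ccl28* was lowest in wild type. *Ccr4* was near or under the floor, with 12.6 in the double mutant, 2.69 in the *Matn3* mutant, 0.938 in the XBP1 null and 7.10 in wild type. *Ccr9* had 28.5 in the double mutant, 21.8 in the *Matn3* mutant, 45.6 in the XBP1 null and 28.2 in wild type on a probe set of a type that can bind related transcripts, where the XBP1 null was the highest. Another probe set gave 13.8 in the double mutant, 19.2 in the *Matn3* mutant, 11.2 in the XBP1 null and 21.4 in wild type, which reverses the order of the XBP1 null and wild type. One more had the XBP1 null highest, with 1.92 in the double mutant, 7.04 in the *Matn3* mutant, 15.3 in the XBP1 null and 5.63 in wild type. *Ccr2* was above the floor only in the XBP1 null, at 10.3, and its other probe sets did not give that order.

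Counted together, the 49 genes were past 1.5-fold at a share above or near that of all genes. Of the genes, 6 were higher and 8 lower in the double mutant than in the *Matn3* mutant, beside 13.5% and 5.94% of all 18193 genes. Against the XBP1 null, the double mutant had 10 higher and 14 lower, beside 13.1% and 12.5%. Against wild type it had 9 higher and 12 lower, beside 19.6% and 8.56%. The *Matn3* mutant had 14 higher and 7 lower than wild type, beside 16.9% and 15.7%, and the XBP1 null had 13 higher and 10 lower than wild type, beside 18.5% and 8.35%. The median log2 difference of the 49 genes was 0.00 in all 5 comparisons, and those of all genes ranged between 0.00 and 0.10. In each comparison 10 to 12 of the 49 genes were under the floor on both arrays and count as 0.00. Over the 36 genes whose mean signal reached the floor, the median was −0.12 for the double mutant against the *Matn3* mutant, −0.11 against the XBP1 null and 0.10 against wild type, beside 0.18, 0.01 and 0.16 over 14766 genes. It was 0.30 for the *Matn3* mutant and 0.09 for the XBP1 null against wild type, beside −0.02 and 0.10. Whether any of these shares exceeds the error of single arrays was not tested.

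**Figure D2:**
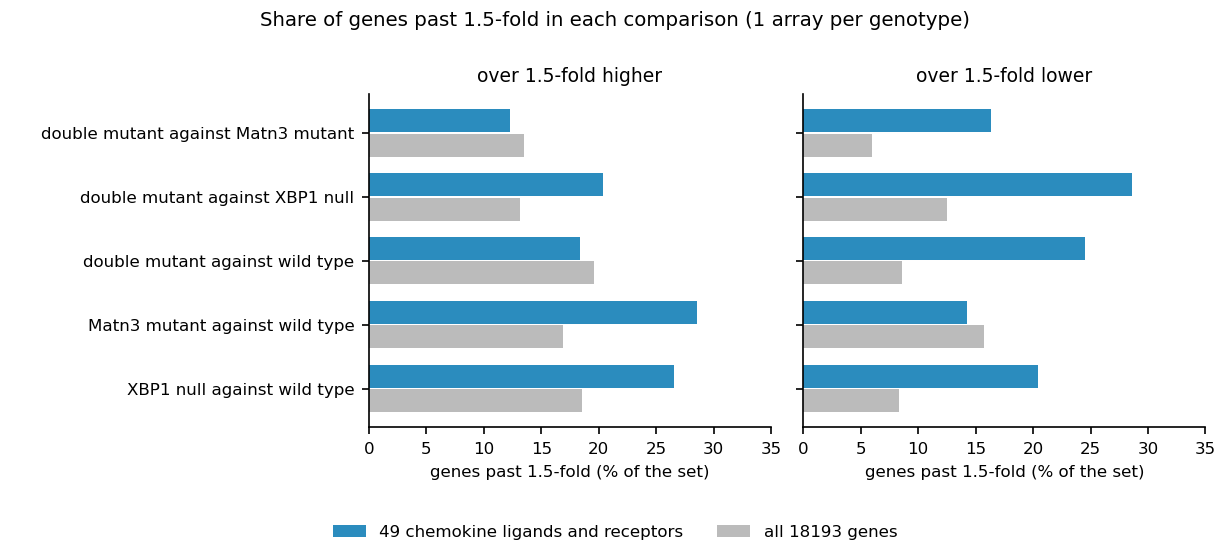
Share of genes past 1.5-fold (percent of the set) in each of 5 comparisons of single arrays, higher on the left and lower on the right, for the 49 chemokine genes (blue) and all 18193 genes (grey). The 14 chemokine genes lower in the double mutant than in the XBP1 null, beside 12.5% of all genes, make the longest bar on the right.

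The design allows each alteration to be read on both backgrounds of the other gene, in pairs of comparisons that share no array. With the *Matn3* mutation, *Ccr6*, *Cxcl17* and *Cxcr3* were over 1.5-fold higher on both XBP1 backgrounds, beside 5.34% of all genes. *Ccl2*, *Ccl7* and *Cxcr4* were lower on both, beside 3.5%. A larger number, 8 of 49, went in opposite directions, beside 4.68% of all genes. *Cxcl10* and *Cxcl11* were lower with the mutation when XBP1 was present and higher when it was absent, while *Ccl5*, *Ccl11*, *Ccl22*, *Ccr1*, *Cxcl5* and *Cxcl12* went the other way. For these 6 genes the mutation went with a higher signal in the presence of XBP1 and a lower one in its absence.

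With the loss of XBP1, *Ccl17* and *Cxcr4* were over 1.5-fold higher on both *Matn3* backgrounds, beside 2.97% of all genes, and *Ccl20* and *Cxcl3* were lower on both, beside 0.879%. *Ccl5*, *Ccl11*, *Cxcl5* and *Xcl1* went in opposite directions, beside 4.5%. Of these, *Ccl5*, *Ccl11* and *Cxcl5* were higher without XBP1 on the wild type background and lower on the *Matn3* mutant background, and *Xcl1* went the other way. Across the 36 genes whose mean signal reached the floor, the log2 differences of the *Matn3* mutation on the 2 backgrounds had a Pearson correlation of −0.08, beside 0.18 across 14766 genes. For the loss of XBP1 these values were 0.16 and −0.11. They are correlations across genes, which are not independent replicates, and each rests on 4 arrays.

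**Figure D3:**
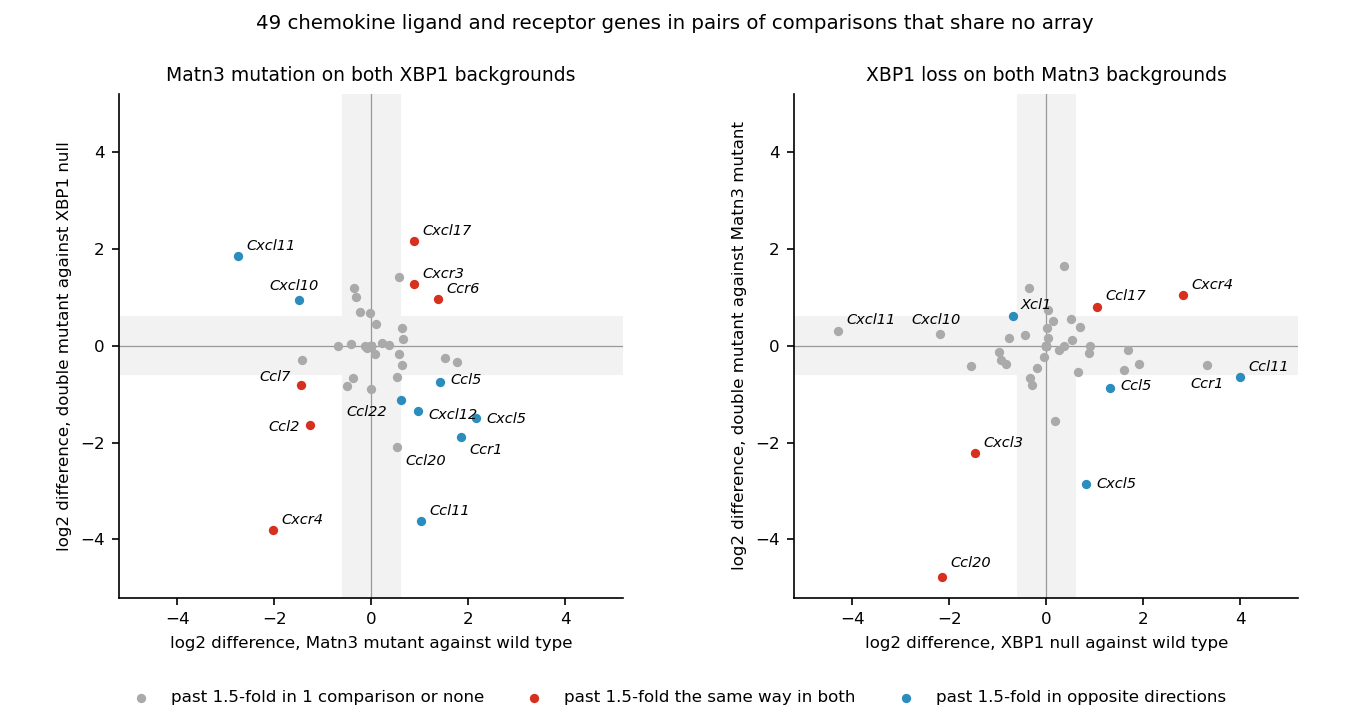
Log2 differences of the 49 genes, each point 1 gene, for the *Matn3* mutation without XBP1 (y) against with XBP1 (x) on the left, and for the loss of XBP1 with the *Matn3* mutation (y) against without it (x) on the right. Grey bands hold differences within 1.5-fold, genes under the floor on both arrays lie at 0, and blue points, 8 on the left and 4 on the right, went in opposite directions.

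Several of the genes highest in the XBP1 null are expressed by endothelium, fibroblasts or blood-borne cells, and markers of several such cell types were also higher there than in wild type. Beside the 16.1-fold higher *Ccl11*, 10.01-fold higher *Ccr1* and 7.07-fold higher *Cxcr4*, the endothelial adhesion gene *Cdh5* had 221 in the double mutant, 146 in the *Matn3* mutant, 838 in the XBP1 null and 11.5 in wild type. *Pecam1* had 87.7 in the XBP1 null and was under the floor on the other arrays. All 11 endothelial markers were also lower in the double mutant than in the XBP1 null, beside 12.5% of all genes, as *Ccl11*, *Ccr1*, *Cxcr4* and *Cxcl12* were. In the double mutant, 8 of these markers were higher and 0 lower than in the *Matn3* mutant, beside 13.5% and 5.94% of all genes. In that comparison *Ccl11* was 1.57-fold lower, *Cxcr4* at least 2.07-fold higher, and *Ccr1* and *Cxcl12* within 1.5-fold. In the *Matn3* mutant, 9 markers were higher and 1 lower than in wild type, beside 16.9% and 15.7%. *Cxcr4* was at least 4.09-fold lower there, and *Ccl11*, *Ccr1* and *Cxcl12* were higher. *Ackr1*, the Duffy antigen receptor of venular endothelium and red cells that binds many chemokines, had the same order as *Cdh5*, with 56.6 in the double mutant, 54.2 in the *Matn3* mutant, 293 in the XBP1 null and 18.7 in wild type. Of 10 markers of perichondrium and fibroblasts, 7 were higher and 0 lower in the XBP1 null than in wild type, beside 18.5% and 8.35% of all genes, and 3 were lower in the double mutant than in the XBP1 null, beside 12.5%. Among them *Dpt*, a matrix gene of fibroblasts, had 276 in the double mutant, 124 in the *Matn3* mutant, 871 in the XBP1 null and 55.3 in wild type. Of 8 osteoblast markers listed, *Bglap*, *Spp1* and *Runx2* had no match. The 5 matched ones were all higher in the XBP1 null than in wild type, beside 18.5% of all genes. All 5 were lower in the double mutant than in the XBP1 null, beside 12.5%. One of these, the osteocyte gene *Dmp1*, had 11.1 in the double mutant, 18.1 in the *Matn3* mutant, 163 in the XBP1 null and 29.3 in wild type. The 7 mast cell markers summed to 33.1, 22.2 and 153 in the double mutant, the *Matn3* mutant and the XBP1 null, against 13.7 in wild type. *Kit* alone had 9.98, 10.3 and 104 in these mutants, against 1.38 in wild type. On these 4 arrays 3, 5, 2 and 6 of the 7 were under the floor. In the XBP1 null 3 were higher and 0 lower than in wild type, beside 18.5% and 8.35% of all genes. The double mutant had 1 higher and 2 lower than the XBP1 null, beside 13.1% and 12.5%. *Ms4a2* was under the floor in the XBP1 null, at 4.77, against 8.50 in the double mutant and 6.37 in wild type. The part of these cells in the chemokine values was not tested.

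The 11 macrophage and monocyte markers summed to 4903 in the double mutant, 5858 in the *Matn3* mutant, 6940 in the XBP1 null and 2530.2 in wild type. *Cd14* alone gave most of each sum. The median log2 difference of the 11 markers from wild type was 0.49 in the double mutant, 0.24 in the *Matn3* mutant and 0.55 in the XBP1 null. Of the 11 markers, 5 were higher in each mutant than in wild type, beside 19.6% of all genes in the double mutant, 16.9% in the *Matn3* mutant and 18.5% in the XBP1 null. They were *Adgre1*, *Csf1r*, *C1qb*, *Mrc1* and *Cd14*. *Cd14*, a receptor of bacterial lipopolysaccharide, had 4066, 5115 and 6133 in the double mutant, the *Matn3* mutant and the XBP1 null, against 1961 in wild type. *Adgre1*, the gene of the macrophage antigen F4/80, had 103, 81.6 and 35.9 in the double mutant, the *Matn3* mutant and the XBP1 null, against 20.2 in wild type, and *C1qb* had 15.6, 15.5 and 20.9 in these mutants, against 8.49 in wild type. *C1qa*, *C1qc* and *Ms4a7* were under the floor on every array. Lower than in wild type were *Itgam* in the double mutant and *Itgam* and *Lyz2* in the *Matn3* mutant. The pan-leukocyte gene *Ptprc* was above the floor only in the XBP1 null, at 11.5. These values stand beside the higher *Ccr1* and *Cx3cr1* of all 3 mutants.

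**Figure D4:**
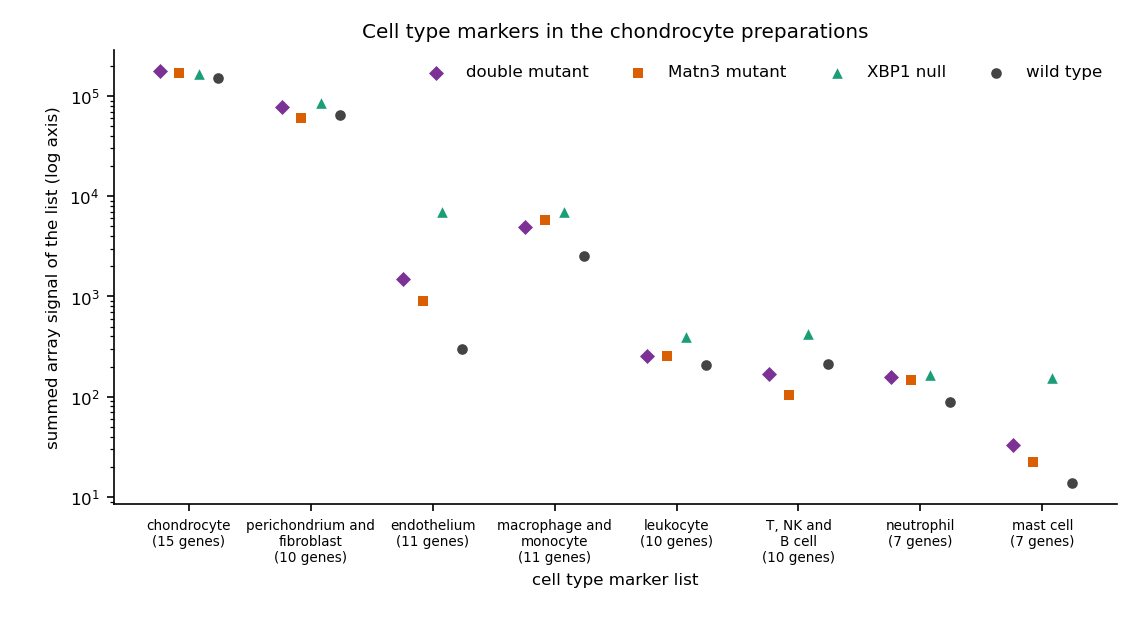
Summed array signal (log axis) of 8 lists of cell type markers on the 4 arrays, 1 point per array, to be read within a list. The endothelial list sums to 1498 in the double mutant, 895 in the *Matn3* mutant, 7041 in the XBP1 null and 296 in wild type, while the chondrocyte list stays between 152656 and 177559.

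Genes known to induce chemokines differed between arrays as well. Of 18 cytokine genes, 9 were over 1.5-fold higher and 2 lower in the *Matn3* mutant than in wild type, beside 16.9% and 15.7% of all genes. In the XBP1 null, 7 were higher and 2 lower than in wild type, beside 18.5% and 8.35%. In the double mutant, 2 were higher and 5 lower than in the *Matn3* mutant, beside 13.5% and 5.94%, 3 were higher and 7 lower than in the XBP1 null, beside 13.1% and 12.5%, and 4 were higher and 4 lower than in wild type, beside 19.6% and 8.56%. *Tnf*, which encodes tumour necrosis factor, had 39.9 in the double mutant, 52.9 in the *Matn3* mutant, 18.96 in the XBP1 null and 129 in wild type, the same highest and lowest arrays as *Cxcl10* and *Cxcl11*. *Il1b*, which encodes interleukin-1β, had 59.6, 30.2 and 19.9 in the double mutant, the *Matn3* mutant and the XBP1 null, against 5.22 in wild type, which is under the floor. Interferon-γ (*Ifng*) was under the floor on all 4 arrays. Of 13 NF-κB subunit and feedback genes, 0 were higher and 6 were lower in the XBP1 null than in wild type, beside 18.5% and 8.35% of all genes, and 6 were higher and 0 lower in the double mutant than in the XBP1 null, beside 13.1% and 12.5%. The *Matn3* mutant had 1 higher and 4 lower than wild type, beside 16.9% and 15.7%. The double mutant had 2 higher and 0 lower than the *Matn3* mutant, beside 13.5% and 5.94%. Against wild type it had 2 higher and 3 lower, beside 19.6% and 8.56%.

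Of 19 interferon response genes, 0 were higher and 9 lower in the double mutant than in the XBP1 null, beside 13.1% and 12.5% of all genes, and 1 was higher and 5 lower in the double mutant than in wild type, beside 19.6% and 8.56%. Against the *Matn3* mutant, 3 were higher and 3 lower in the double mutant, beside 13.5% and 5.94%. The *Matn3* mutant had 2 higher and 5 lower than wild type, beside 16.9% and 15.7%, and the XBP1 null had 5 higher and 1 lower than wild type, beside 18.5% and 8.35%. The gene lower in the XBP1 null than in wild type was *Irf1*, an activator of *Cxcl9*, *Cxcl10* and *Ccl5*, with 3871 in the double mutant, 3384 in the *Matn3* mutant, 2872 in the XBP1 null and 6725 in wild type. Its highest and lowest arrays were those of *Cxcl10* and *Cxcl11*, whereas *Cxcl9* was lowest in the double mutant and *Ccl5* was lowest in wild type. The part of *Irf1* or *Tnf* in the chemokine values was not tested. *Gbp2*, another gene induced by interferon, had a different order, with 11.3, 33.3 and 87.8 in the double mutant, the *Matn3* mutant and the XBP1 null, against 15.9 in wild type. Of 18 genes of chemokine receptor signalling, 7 were higher and 1 lower in the XBP1 null than in wild type, beside 18.5% and 8.35% of all genes, the higher ones including *Rgs1* and *Rgs2*, which shorten G protein signals. The 14 genes for heparan sulphate synthesis and its core proteins were all above the floor, with 5 higher and 0 lower in the XBP1 null than in wild type, beside the same 18.5% and 8.35%.

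Where the brightest probe set of a gene passed 1.5-fold, its other probe sets mostly gave the same direction. Other probe sets under the floor on both arrays were not counted. Outside this count, *Ccl28* was 1.41-fold lower in the double mutant than in the *Matn3* mutant, but 2.10-fold higher on a second probe set. *Cx3cl1* was 1.18-fold lower in the *Matn3* mutant than in wild type, but 4.01-fold higher on 1 other probe set. Of 18 genes with more than 1 probe set, those that differed by over 1.5-fold between the *Matn3* mutant and wild type had 4 of 4 other probe sets on the same side. Between the XBP1 null and wild type it was 9 of 11, with *Ccr9* and *Cxcl12* the exceptions, and between the double mutant and the XBP1 null it was 8 of 11, with *Ccr2*, *Ccr9* and *Cxcl12* the exceptions. For the double mutant set against the *Matn3* mutant it was 1 of 1, and it was 4 of 5 between the double mutant and wild type, with *Cxcl9* the exception. A further 4 probe sets name several chemokine genes at once and were kept out of the counts. One of them, for *Ccl21a*, *Ccl21b*, *Ccl21c* and *Ccl21d*, which guide leukocytes into lymphatic vessels, had 2.84 in the double mutant, 4.68 in the *Matn3* mutant, 457 in the XBP1 null and 3.47 in wild type.

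Neighbouring genes were past 1.5-fold together in only some of their clusters. Of the 6 genes around *Ccl2* on chromosome 11, *Ccl2* and *Ccl7* were lower and *Ccl11* higher in the *Matn3* mutant than in wild type, while *Ccl8* was within 1.5-fold. Of the 5 around *Ccl5*, only *Ccl5* passed 1.5-fold in that comparison. The receptor genes *Ccr1*, *Ccr2* and *Ccr9* on chromosome 9, next to *Ccr3* and *Cxcr6*, were all higher in the XBP1 null than in wild type and all lower in the double mutant than in the XBP1 null, with the probe set limits given above.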

How the data were processed

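RNA of rib chondrocytes was labelled with biotin and hybridized to 4 arrays of a whole-genome 3′ expression assay (Affymetrix Mouse430_2), 1 per genotype. The authors deposited linear signal intensities of 45037 probe sets; per their methods, control hybridizations were checked in Microarray Suite 5 and differential expression was called with the PPLR package. The sources used here do not give how probes were summarized or arrays normalized. The median signal was 43.8 on each of the 4 arrays. PPLR needs errors of single probes and was not applied here.

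Of the probe sets, 34945 name 1 gene, 932 several and 9160 none. Signals were taken as log2 without further scaling, the probe set of highest mean stood for a gene, and differences were computed after signals under the 25th percentile of all values had been set to it. A difference over 1.5-fold was counted. With 1 array per genotype no p-value and no error was computed, and the number of arrays limits the precision. Counting was tested on simulated data. Members and gene lists were chosen with earlier results of these data known. Values are given for *Cxcl10*, *Cxcl11*, *Ccl5* and *Cxcl5*, for each gene at or above the floor on all 4 arrays, and for up to 4 genes with the widest difference each way in each comparison. Other genes named were chosen after their values were seen. The alternatives were a floor at 1, median centring, quantile normalization, the median of all probe sets of a gene, dropping those with the suffixes _x_at and _s_at, a filter on mean signal and a 2-fold threshold. All 49 genes matched a RefSeq symbol, and 7 further symbols occur only on probe sets that name several genes. Python 3.11.15, numpy 2.4.6, pandas 2.3.3 and matplotlib 3.10.9 were used.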

Additional observations from a re-analysis of the deposited data

Results flagged for a closer look

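For 9 genes an alteration went with differences over 1.5-fold in opposite directions on the 2 backgrounds of the other gene, which singled them out. They were 8 for the *Matn3* mutation, beside 4.68% of all genes, and 4 for the loss of XBP1, beside 4.5%. *Ccl5*, *Ccl11* and *Cxcl5* were in both. The size of the contrast between backgrounds is the log2 difference between the double mutant and the XBP1 null minus that between the *Matn3* mutant and wild type. It was −4.66 for *Ccl11*, −3.73 for *Ccr1*, −3.67 for *Cxcl5*, −2.30 for *Cxcl12*, −2.18 for *Ccl5* and −1.72 for *Ccl22*. It was 4.60 for *Cxcl11*, 2.43 for *Cxcl10* and 1.32 for *Xcl1*. The sign of each value follows from how the genes were picked and is not a result. Each value uses all 4 arrays with no replicate, and the difference was not tested. The value of *Cxcl5* rests on a double mutant signal under the floor. *Ccl11*, at 5.87 in wild type, and *Ccl22*, at 6.66 in the double mutant, were near the floor.

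The probe set shared by *Ccl21a*, *Ccl21b*, *Ccl21c* and *Ccl21d* names several genes and entered no count. It had a signal of 457 in the XBP1 null and was under the floor in wild type, at 3.47. The endothelial markers were highest on the same array, and their part in this value was not tested.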

How the results depend on the processing

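Centring, quantile normalization, a floor at 1, the median over probe sets, the filter on mean signal and leaving out the cross-hybridizing probe sets kept all 12 counts within 1.5 times. At 2-fold, counts shrink by construction: 7 genes were higher in the *Matn3* mutant than in wild type, 8 higher and 5 lower in the XBP1 null than in wild type, 3 higher and 4 lower in the double mutant than in the *Matn3* mutant, and 5 higher and 8 lower in the double mutant than in the XBP1 null. The last was the count of genes that passed the threshold the same way with the *Matn3* mutation on both XBP1 backgrounds. Of the named genes, *Ccr9* reversed without the cross-hybridizing probe sets, at −0.93 for the XBP1 null against wild type and 0.30 for the double mutant against the XBP1 null on the log2 scale. The cause was not tested. A floor at 1 moved 12 differences of *Ccr4*, *Cxcl5*, *Cxcl17* and *Cxcr4*, each with an array under the floor. The median over probe sets moved 24 differences of *Ccl28*, *Ccr1*, *Ccr9*, *Cx3cl1*, *Cx3cr1*, *Cxcl9*, *Cxcl11*, *Cxcl12* and *Cxcl13*. With it, against wild type, *Cx3cr1* differed by 0.07 in the double mutant and 0.00 in both single mutants, and *Ccr1* by 0.00 in the double mutant, 0.09 in the *Matn3* mutant and 1.61 in the XBP1 null (log2), since their other probe sets lie under the floor. *Ccl28* was 0.98 higher in the double mutant than in the *Matn3* mutant, against −0.50 on its brightest probe set. No paired analysis was possible because each genotype has 1 array.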
